A study of Mus musculus with 6 samples.

Results

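Between a gene's start and the next gene lies sequence in which open chromatin often marks distal regulatory elements. In mouse oviductal smooth muscle cells, 10829 such regions were found open in both genotypes within 50 kb of a transcription start. They make up 16.2% of the 66679 regions obtained by merging the peak lists of both genotypes, and 23.5% of the 46152 regions present in both. Each list was the conservative set that the ENCODE pipeline keeps as reproducible between libraries by the irreproducible discovery rate (IDR), with 1 list for WT and 1 for Pbrm1 cKO. Starts and gene bodies were those of GENCODE M21, with its pseudogenes and small RNA genes, and genes absent from it were not seen. A region was counted here when it overlapped entries of both lists and lay outside every annotated gene body. Its midpoint had to lie more than 1 kb and at most 50 kb from the nearest annotated start. The regions were therefore selected on their peak calls in both genotypes, so their presence in both is no finding, and nothing is read from it. Regions are called below by the gene with the nearest start, which names a position and not a target.

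ATAC-Seq was performed on primary oviductal muscle cells from mice 8 to 12 weeks old on day 2 (D2) of pregnancy after mating with stud males, with 3 libraries labelled WT and 3 labelled Pbrm1 cKO. In the study's methods the conditional knockout carries floxed Pbrm1 alleles that are excised by a Cre expressed from the progesterone receptor gene, and the controls are floxed littermates without Cre. Per the labels, oviducts of both groups were digested with enzymes, and the cells filtered and plated for some hours before transposition, so the cells are short-term cultures and not tissue. How many animals stood behind each library is not given, and p-values measure the spread between these libraries. In such bulk libraries, fewer cells with an open region and a less open region per cell cannot be told apart.

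PBRM1 is the bromodomain subunit that defines the PBAF form of the SWI/SNF chromatin remodeler, which uses ATP to move or evict nucleosomes. Distal elements are typically bound by sequence-specific factors. AP-1 dimers of FOS and JUN proteins are frequent at enhancers of mesenchymal cells and can recruit SWI/SNF, whereas CTCF holds chromatin loops and boundaries. SP and KLF factors bind GC-rich sequence, mostly at promoters.

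The sequences of 7 regions that the results turn on are given first, each as the plus strand of GRCm38 (RefSeq sequence) with 100 bases on either side of the summit of the peak. Capitals mark any match to 1 of 16 factor motifs that were searched on both strands. The first is the region that ranked highest over the 6 libraries, and the other 2 are the best-ranked regions with an AP-1 and with a CTCF match.
Gm47397 (highest rank, chr12:97061500-97061700): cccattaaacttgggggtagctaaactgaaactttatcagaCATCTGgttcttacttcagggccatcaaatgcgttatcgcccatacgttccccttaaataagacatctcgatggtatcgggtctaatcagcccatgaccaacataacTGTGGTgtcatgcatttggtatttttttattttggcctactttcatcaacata
Trappc9 (AP-1, chr15:73067561-73067761): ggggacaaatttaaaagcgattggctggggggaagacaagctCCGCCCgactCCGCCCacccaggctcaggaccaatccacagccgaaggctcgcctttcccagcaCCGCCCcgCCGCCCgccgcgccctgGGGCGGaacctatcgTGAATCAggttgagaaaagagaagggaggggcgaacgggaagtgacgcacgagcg
Gm8288 (CTCF and AP-1, chr13:75797879-75798079): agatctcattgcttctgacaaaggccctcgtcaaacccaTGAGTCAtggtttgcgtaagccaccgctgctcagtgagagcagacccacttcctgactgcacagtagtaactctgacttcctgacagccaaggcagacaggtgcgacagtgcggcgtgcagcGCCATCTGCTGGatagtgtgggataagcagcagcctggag
The following pair ranked higher in the Pbrm1 cKO libraries and the pair after it lower, by the test given below.
Ifi203 (higher, chr1:173955206-173955406): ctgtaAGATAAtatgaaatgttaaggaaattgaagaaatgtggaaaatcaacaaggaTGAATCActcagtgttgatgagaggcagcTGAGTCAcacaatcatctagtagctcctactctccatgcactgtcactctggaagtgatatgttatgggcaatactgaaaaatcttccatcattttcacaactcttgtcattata
Ddr1 (higher, chr17:35720455-35720655): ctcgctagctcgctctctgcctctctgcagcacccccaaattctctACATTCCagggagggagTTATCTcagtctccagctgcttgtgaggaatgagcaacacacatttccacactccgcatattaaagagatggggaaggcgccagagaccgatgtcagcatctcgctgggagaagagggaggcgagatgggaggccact
Gm25283 (lower, chr6:47651167-47651367): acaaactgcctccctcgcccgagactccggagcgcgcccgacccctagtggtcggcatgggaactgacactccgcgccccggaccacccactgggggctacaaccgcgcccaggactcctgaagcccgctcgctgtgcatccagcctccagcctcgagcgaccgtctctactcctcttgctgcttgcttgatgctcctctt
E330020D12Rik (lower, chr1:153386748-153386948): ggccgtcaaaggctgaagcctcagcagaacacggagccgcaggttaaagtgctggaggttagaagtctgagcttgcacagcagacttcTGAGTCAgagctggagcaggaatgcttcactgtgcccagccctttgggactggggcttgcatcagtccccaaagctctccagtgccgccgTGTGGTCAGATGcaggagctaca

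The motifs were those of AP-1, TEAD, RUNX, GATA, ETS, FOX, HOX13, SP/KLF, CTCF, MEF2 and NFI, the E-box, the CArG box, the PR/GR and ER elements and DR1, and the letters of the short ones are given with their shares below. Matches may overlap. In the Gm8288 sequence the E-box lies within the CTCF match. The Ifi203 sequence held 2 AP-1 matches, at bases 58 to 64 and 87 to 93 of the printed sequence. The E330020D12Rik sequence held 1, at bases 89 to 95, and all of these lie before the summit. The Gm25283 sequence held no match to any of the 16 motifs. A match describes the letters and does not show that a factor binds.

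Depth was read from the peak lists, since MACS2's fold enrichment and p-value together fix the number of tags at a summit. At the summits of these regions the median was 30, 28 and 16 tags in WT libraries 1, 2 and 3, and 33, 28 and 29 in Pbrm1 cKO libraries 1, 2 and 3. WT library 3 was the shallowest, and 107 regions lacked an entry in that library alone, whereas 10718 regions had an entry in all 6. Because depth differed, regions were compared by their rank among all 66679 within a library, from 1 for the smallest p-value. The rank score is log2 of the number of regions over the rank, so that 1 unit is a 2-fold better rank, and ranks with a decimal are shared by tied regions. Among promoter regions, 5 of 6 smooth muscle markers (Acta2, Myh11, Cnn1, Tagln and Des, but not Actg2) had an open one. Of 7 epithelial markers only Foxj1 had one, and Epcam, Cdh1, Krt8, Krt18, Pax8 and Ovgp1 had none. Promoters were open for 2 of 5 immune, 4 of 4 endothelial and 4 of 5 fibroblast markers, so the libraries also held open promoters of other cell types' markers, whose part in the results was not tested.

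The regions were most densely packed near starts. Per Mb of intergenic sequence at the same distance there were 13.7 regions at 1 to 2 kb, 12.7 at 2 to 5 kb and 13.5 at 5 to 10 kb. Density then fell to 11.8 at 10 to 20 kb, 9.97 at 20 to 30 kb, 8.09 at 30 to 40 kb and 7.07 at 40 to 50 kb, and was 5.04 for shared intergenic regions at 50 to 100 kb. The median distance was 11.8 kb, with the middle 50% of regions between 5.82 and 22.5 kb. In all, 6452 regions (59.6%) lay upstream of the nearest start. At 1 to 2 kb the upstream share was 80.3%, at 2 to 5 kb 67.4%, and from 20 kb on it was 51.7% to 54.0%. The selection removed gene bodies, which lie downstream of starts, and its part in the upstream share was not tested. Regions grew wider with distance, from a median of 445 bp at 1 to 2 kb to 554 bp at 40 to 50 kb.

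**Figure D1:**
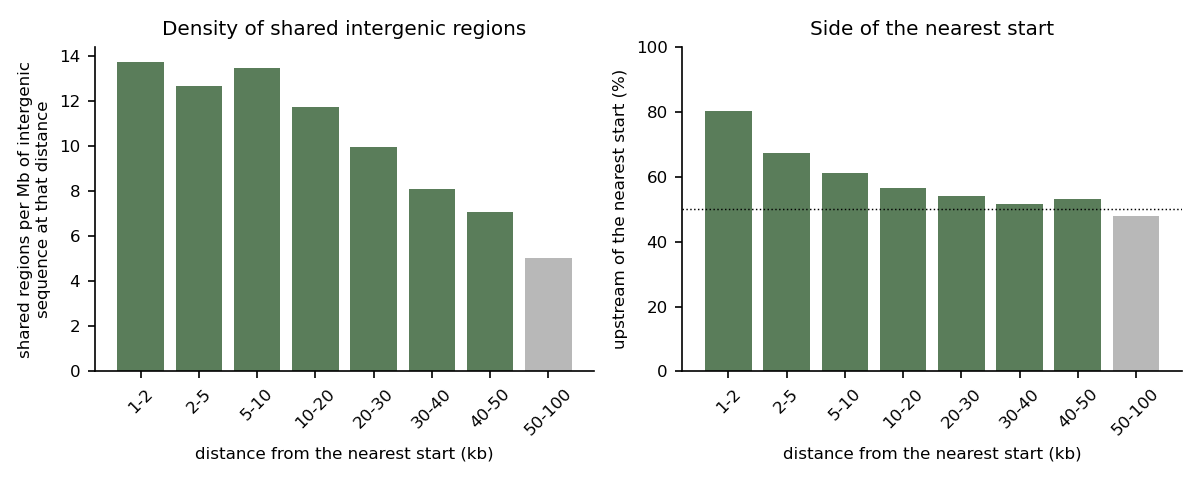
Left, shared intergenic regions per Mb of intergenic sequence (y axis) in each band of distance from the nearest start (x axis, kb); right, the share of them upstream of that start (%), with a dotted line at 50%. Green bars are the regions described here and the grey bar is the band beyond 50 kb. Density falls from 13.7 to 7.07 regions per Mb and the upstream share from 80.3% to 53.0%.

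The nearest start belonged to a protein-coding gene for 4751 regions (43.9%), to a long noncoding or unconfirmed transcript for 2821 (26.1%), to a pseudogene for 2248 (20.8%) and to a small RNA or other gene for 1009 (9.32%). A protein-coding start lay within 50 kb of 7741 regions (71.5%). The regions were spread over 7149 nearest genes, of which 4788 had 1 region and 108 had at least 5. Another region of the same kind lay within 5 kb for 3154 (29.1%). The longest chain with gaps of at most 5 kb held 9 regions over 11.4 kb at chr19:12002137-12013562, near Olfr1421-ps1. A chain of 7 regions over 5.88 kb lay at chr13:21167490-21173365 near Trim27.

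An AP-1 motif (TGANTCA) was present in the 300 bp centred on the summit in 4959 regions (45.8%, 95% Wilson interval 44.9% to 46.7%). Of all 66679 regions, 36.6% held one. The share was 51.6% in shared intronic regions, 59.8% in shared intergenic regions beyond 50 kb, 41.1% in shared exonic regions and 12.2% in shared promoter regions. A CTCF motif was present in 943 regions, or 8.71% (8.19% to 9.25%). This was above the 5.73% of intronic regions (5.36% to 6.12%), the 3.73% of intergenic regions beyond 50 kb (2.92% to 4.75%), the 2.45% of promoter regions and the 5.25% of all regions. Shared exonic regions had a like share, 8.61% (7.57% to 9.78%), so the share was not particular to intergenic regions near starts. The intervals cover counting error only. Both motifs were seldom found together. An AP-1 motif accompanied 101 of the 943 CTCF matches (10.7%), whereas 49.1% of regions without a CTCF match held one.

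Of the other motifs, the E-box (CATCTG) was present in 25.2% of regions, compared with 22.0% of all regions. RUNX (TGTGGT), the site of the runt factors, was present in 23.6%, against 21.2% of all regions. The motif of the zinc finger GATA factors (AGATAA) was present in 14.5%, against 12.9% of all regions. The GC-rich SP/KLF motif (GGGCGG) was present in 11.4%, against 22.6% of all regions and 57.6% of promoter regions. TEAD (ACATTCC), bound by partners of YAP, was present in 7.57%, against 6.78% of all regions. HOX13 (CAATAAA), named for the posterior HOX factors, was present in 3.80%, against 3.68% of all regions. FOX (TGTTTAC), the forkhead site, was present in 3.72%, against 3.62%, and MEF2 in 3.49%, against 3.15% of all regions. The CArG box, the site of SRF, was present in 2.24%, against 1.70% of all regions. The ETS motif (CCGGAAGT) was present in 0.702% of regions, compared with 1.99% of all regions and 6.20% of promoter regions. The others were rare, with 35 regions for the ER element (0.323%, against 0.189% of all regions), 25 for the PR/GR element (0.231%, against 0.219%), 7 for NFI (0.0646%, against 0.0555%) and 5 for DR1 (0.0462%, against 0.0375%). At least 1 of the 16 motifs was found in 9163 regions (84.6%). GC content had a median of 48.7%, against 61.3% in promoter regions. CpG sites were depleted as in most of the genome, and only 7.14% of regions had an observed over expected CpG ratio above 0.6, against 65.9% of promoter regions and 2.83% of intronic ones.

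Where the matches lay relative to the summit differed between the motifs. AP-1 matches rose from 0.709 per 100 regions in each 20 bp bin at 400 to 500 bp from the summit to 6.01 in the bins next to the summit, and were highest, at 7.32, in the bin centred 30 bp before it. CTCF matches stood almost entirely beside the summit. There were 31 in the bins next to the summit and 573 in the bins centred 50 bp on either side, and 928 of the 1050 matches within 500 bp lay within 80 bp. GATA and MEF2 matches were fewer at the summit than in the flanks, with 0.730 against 1.21 and 0.0831 against 0.326 per 100 regions and bin.

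**Figure D2:**
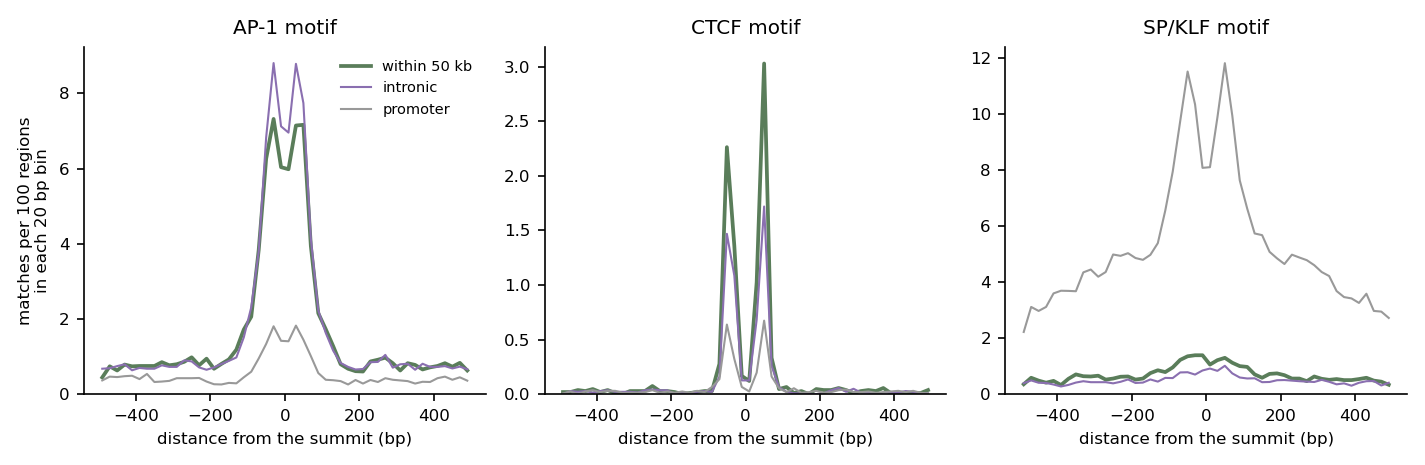
Matches per 100 regions in each 20 bp bin (y axis) against distance from the summit (x axis, bp) for the AP-1, CTCF and SP/KLF motifs, with lines for the regions described here (green), shared intronic regions (purple) and shared promoter regions (grey). AP-1 matches gather within about 100 bp of the summit, CTCF matches form a pair of narrow peaks about 50 bp on either side of it, and SP/KLF matches are mainly a feature of promoters.

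Both motifs changed with distance in opposite directions. The AP-1 share rose from 37.2% of 613 regions at 1 to 2 kb to 46.2% at 10 to 20 kb and 53.8% of 617 at 40 to 50 kb. The CTCF share was 9.30% at 1 to 2 kb, 10.4% at 2 to 5 kb, 7.58% at 20 to 30 kb and 4.70% at 40 to 50 kb. Regions nearest to a protein-coding start held more CTCF (10.9%) and less AP-1 (41.3%) than those nearest to a long noncoding or unconfirmed transcript (5.71% and 51.0%). Regions with a CTCF match were narrow, with a median width of 334 bp against 528 bp for those without.

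In strength, these regions were far behind promoters. The median rank score over the 6 libraries averaged 1.25, which corresponds to median ranks from 27073.5 in WT library 2 to 29213.5 in WT library 3. Shared promoter regions averaged 2.49, and the difference was -1.24 ± 0.13 (SD, n = 6 libraries), from -1.45 to -1.06, lower in 6 of 6 libraries. The exact two-sided sign-flip permutation test over libraries gave p = 0.0312, the smallest it can give with 6 libraries, and 0.0469 after adjustment over the 3 such differences tested. Against shared intergenic regions beyond 50 kb the difference was 0.08 ± 0.04 (SD, n = 6), higher in 6 of 6 libraries (exact permutation p = 0.0312, adjusted 0.0469). It turned to -0.06 when regions were ranked by fold enrichment. Between regions within 10 kb of a start and those beyond 25 kb the difference of 0.06 ± 0.05 (SD, n = 6) did not pass, with exact permutation p = 0.125, and with ranks by fold enrichment the difference was -0.11 (exact permutation p = 0.0312).

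The regions were also ordered by mean rank score and cut into 10 groups of near equal size. In the strongest group, of 1083 regions, 53.2% held an AP-1 match, 23.3% an SP/KLF match and 6.19% a CTCF match, and 19.0% were rich in CpG by the ratio above. In the weakest group, of 1082, the shares were 41.1%, 6.65%, 8.41% and 2.87%. Median width fell from 736 to 369.5 bp. These values describe 1 ordering and were not tested.

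**Figure D3:**
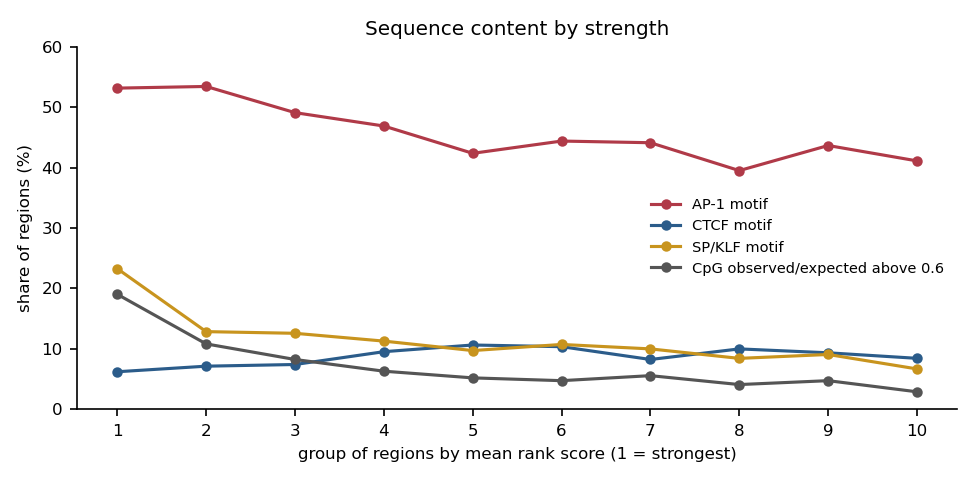
Share of regions (y axis, %) with an AP-1, a CTCF or an SP/KLF match or with a CpG observed over expected ratio above 0.6, in 10 groups of regions by mean rank score (x axis, 1 = strongest). AP-1, SP/KLF and CpG shares are lower in the last group than in the first, at 41.1% against 53.2%, 6.65% against 23.3% and 2.87% against 19.0%, while the CTCF share is 6.19% in the first group and highest, 10.6%, in the fifth.

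The 3 regions of highest mean rank score resembled mitochondrial DNA. The Gm47397 region (chr12:97061406-97061822) ranked 1, 2 and 3 in the WT libraries and 1, 1 and 2 in the Pbrm1 cKO libraries, and all 301 bases around its summit matched the mitochondrial genome with 99.7% identity. The Gm43393 region (chr5:60042750-60043116) ranked 5, 3 and 5, then 3, 3 and 4, and matched over 258 bases with 98.4% identity. The Abcb11 region (chr2:69355506-69355696), 13.0 kb upstream of the bile salt export pump gene, ranked 4 in every library but Pbrm1 cKO library 3, where it ranked 3, and matched over 129 bases with 100% identity. Of all 10829 regions only 4 had such a match. The Pak3 region on chromosome X (chrX:143482975-143483143) ranked 3, 8 and 2 in WT and 11, 10 and 8 in Pbrm1 cKO libraries and had none. It is 169 bp wide and lies 35.5 kb upstream of the gene of a p21-activated kinase. How many reads of these 4 regions came from other places was not tested.

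Below them came regions without a mitochondrial match. Their GC content was 55.3% to 65.3%, against a median of 48.7% over all regions of this kind. The Rpl30-ps6 region (chr1:86487104-86488199) had 143, 147 and 107 tags at its summit in WT and 166, 158 and 163 in Pbrm1 cKO libraries. The Trappc9 region (chr15:73067346-73067951), 6.44 kb upstream of a gene of vesicle transport, had 128, 125 and 94 tags in WT and 189, 145 and 191 in Pbrm1 cKO libraries. Its printed sequence holds 5 SP/KLF matches and 1 AP-1 match. Groups did not overlap in tags in either region, also with the shallow WT library 3 set aside, but tags were not adjusted for depth. Neither region passed the rank comparison, with adjusted p of 0.866 and 0.488 (limma). The Zfp869 region (chr8:69716382-69717301) and the Gm8288 region (chr13:75797483-75798165) both held an AP-1 match and had 86 to 191 tags. The Cpeb4 region (chr11:31870623-31870987), 1.41 kb upstream of the gene of a translational regulator, varied more, ranking 296, 2453 and 330 in the WT libraries and 343, 1543 and 21 in the Pbrm1 cKO libraries. The Gm25283 region, also among the 10 strongest, is described below. Near-identical copies elsewhere in the genome, at 95% identity over at least 80% of 301 bases, were found for 89 regions (0.822%).

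The ranks of the regions were then compared between genotypes. Whether sequence differences between the animals of the groups had a part in rank differences was not tested. The regions' median rank score lay close in both genotypes, at 1.25 ± 0.06 for WT and 1.26 ± 0.01 for Pbrm1 cKO (SD over 3 libraries each). The difference was 0.0037, with exact permutation p = 0.90, where 3 libraries against 3 cannot go below 0.10. Single regions were then tested with limma on the rank scores of all 66679 regions, with Benjamini-Hochberg adjustment over all of them. At adjusted p under 0.05, 2 of the 10829 regions ranked higher in Pbrm1 cKO and 2 ranked lower. Over all regions tested, 0.039% ranked higher and 0.0285% lower. Since membership needed a call in both genotypes, the share among these regions is not read against that background. With normal scores of the ranks in place of their logarithm, 45 regions were higher and 43 lower, and over all regions 662 and 890, so the number of calls rests on the scale. Without adjustment, 536 regions (4.95%) were higher and 551 (5.09%) lower at p under 0.05, against 7.51% and 8.37% of all regions. Ranks did not overlap between the genotypes at 954 regions that were higher (8.81%) and 951 that were lower (8.78%), against 10.6% and 10.9% of all regions. Within a genotype the score of a region varied by a median SD of 0.328 over the WT and 0.282 over the Pbrm1 cKO libraries.

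The Ifi203 region (chr1:173954933-173955393) lies 12.5 kb upstream of Ifi203, an interferon-inducible gene of the PYHIN family of nucleic acid sensors. It ranked 24787.5, 16369 and 16917.5 in the WT libraries and 2694, 4659 and 2793 in the Pbrm1 cKO libraries. Its summit had 27, 31 and 21 tags in WT and 92, 68 and 89 in Pbrm1 cKO, so every Pbrm1 cKO library exceeded every WT library. The rank score was higher by 2.54 ± 0.38 (SE), with adjusted p = 0.0165. Ranked by fold enrichment it also passed, with adjusted p = 0.0350. Without WT library 3 adjusted p was 0.0406, and leaving out any other library raised it above 0.05, up to 0.165. Of 12 other regions within 100 kb, 4 were higher and 2 lower at unadjusted p under 0.05, where 7.51% and 8.37% of all regions were. Their differences ran from -4.21 to 1.57, and none passed. With so few neighbouring regions, the counts were not tested against that share.

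The Ddr1 region (chr17:35720114-35720722) lies 15.8 kb upstream of Ddr1, which encodes a receptor tyrosine kinase for collagen. Ranks were 50251, 44840.5 and 38325.5 in WT and 10807.5, 13622.5 and 15498 in Pbrm1 cKO libraries. Tags were 17, 17 and 13 in WT and 61, 46 and 44 in Pbrm1 cKO, again without overlap. The rank score was higher by 1.75 ± 0.32 (SE; adjusted p = 0.0473), but ranked by fold enrichment adjusted p was 0.109, and without each library in turn it was 0.0547 to 0.210. The printed sequence holds a TEAD and a GATA match. Of 22 other regions within 100 kb, 3 were higher and 0 lower at unadjusted p under 0.05, where 7.51% and 8.37% of all regions were. None passed, and these counts were not tested either.

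The Gm25283 region (chr6:47650497-47651667) lies 13.9 kb downstream of the start of a small noncoding RNA gene and 55.7 kb from the start of Ezh2, the nearest protein-coding gene. It is 1171 bp wide, GC-rich (63.7%) and among the strongest in WT, with ranks of 13, 16 and 16. In Pbrm1 cKO libraries it ranked 5272.5, 2509 and 4841. Tags were 235, 192 and 142 in WT and 84, 93 and 78 in Pbrm1 cKO. The rank score fell by 8.07 ± 1.10 (SE; adjusted p = 0.0112). At the entry with the smallest p-value, fold enrichment over the local background did not separate the genotypes. It was 23.0, 21.4 and 20.1 in WT and 20.3, 23.2 and 20.7 in Pbrm1 cKO. Ranked by the highest fold of any overlapping entry, the region no longer passed (-1.88, limma adjusted p = 0.354). Leaving out any Pbrm1 cKO library also raised adjusted p, to between 0.146 and 0.210.

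The E330020D12Rik region (chr1:153386437-153387019) lies 21.1 kb downstream of the start of a noncoding transcript and 38.4 kb from Shcbp1l. It ranked 70, 390 and 495 in WT and 3814, 4914 and 4492 in Pbrm1 cKO libraries. The rank score fell by 4.20 ± 0.74 (SE; adjusted p = 0.0434). Tags were 125, 89 and 61 in WT and 77, 62 and 67 in Pbrm1 cKO, which overlap, as do the fold enrichments of 38.8, 34.7 and 29.1 against 29.8, 26.9 and 27.3. By fold the call was lost (adjusted p = 0.625), and it was also lost without any library other than WT library 3 (adjusted p up to 0.204). The sequence around its summit has 1 near-identical copy in the genome, so its reads may not all be its own.

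Next by p-value in each direction, and not past the threshold, were the Gm22661 region (chr13:95346942-95347649), 20.5 kb from the start of Zbed3, and the 4930564D02Rik region (chr3:105099530-105100489). The former had 25, 14 and 10 tags in WT and 60, 53 and 36 in Pbrm1 cKO, a rank score difference of 1.89 ± 0.36 (SE; limma adjusted p = 0.0620), and held a CTCF match. The latter had 35, 25 and 17 tags in WT and 13, 12 and 10 in Pbrm1 cKO, a difference of -1.37 ± 0.27 (SE; limma adjusted p = 0.0721), and held a CArG box. Both passed with normal scores of the ranks, with adjusted p of 0.00377 and 0.00883 (limma). On chromosome 14, 137 regions lay within 20 Mb of Pbrm1 itself, of which 16 (11.7%) had unadjusted p under 0.05 and none passed, against 10.0% of all regions of this kind and 15.9% of all 66679.

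**Figure D4:**
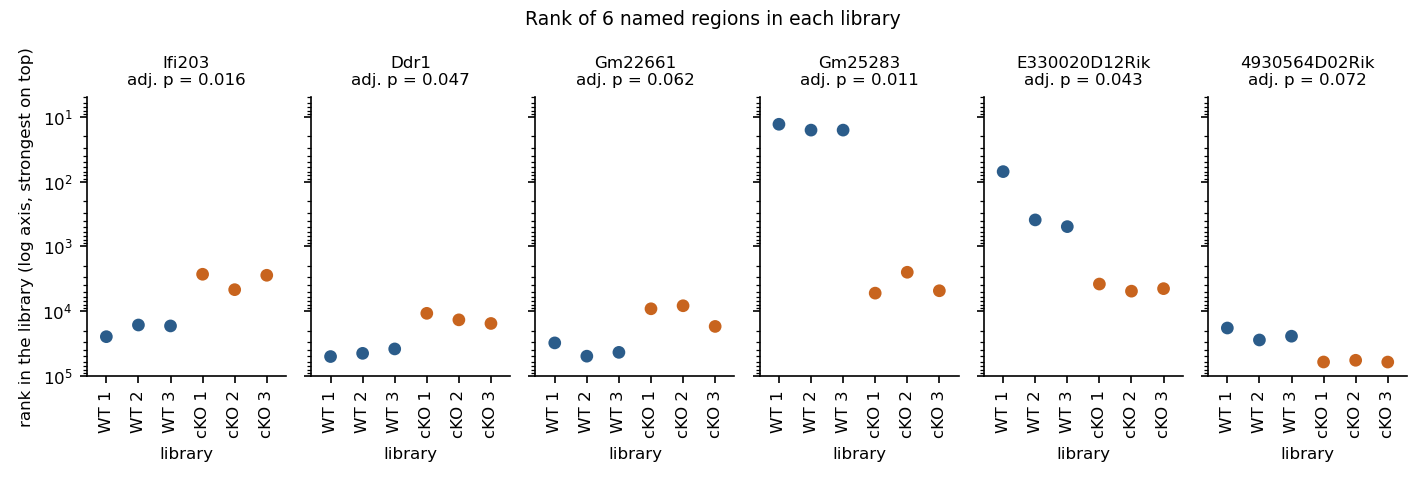
Rank among all 66679 regions (y axis, log scale, strongest at the top) in each WT (blue) and Pbrm1 cKO (orange) library (x axis) for 6 regions, with the limma adjusted p above each panel. The groups do not overlap in any panel. The Gm25283 region moves the farthest, from ranks of 13 to 16 in WT to 2509 to 5272.5 in Pbrm1 cKO.

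Grouped by motif, regions with a CTCF match had a better median relative to the others in every Pbrm1 cKO than in every WT library. In WT they ranked behind regions without one, with median rank scores lower by 0.12, 0.18 and 0.15 in libraries 1, 2 and 3. In Pbrm1 cKO the difference was -0.07, 0.00 and 0.06. The genotypes thus differed by 0.15 (WT -0.15 ± 0.03, Pbrm1 cKO -0.0049 ± 0.06, SD, n = 3 each) and did not overlap. The exact permutation p was 0.10, the smallest this design allows, and 0.32 after adjustment over 16 motifs, so the design cannot place this difference past 0.05. In ranks, the median of the 943 regions with a CTCF match was 30211.5, 30388 and 32304.5 in WT and 28927, 28092 and 27080.5 in Pbrm1 cKO. The median of the 9886 others was 27706, 26738.2 and 29213.5 in WT and 27527, 28092 and 28168.2 in Pbrm1 cKO, and overlapped between genotypes. Of the regions with a match, 620 (65.7%) had a higher mean score in Pbrm1 cKO, compared with 48.4% of those without. At unadjusted p under 0.05, 4.95% of all regions of this kind were higher and 5.09% lower, beside 7.51% and 8.37% of all 66679 regions. Of those with a CTCF match, 61 (6.47%) were higher and 8 (0.848%) lower, and none passed the adjusted threshold. These counts are of regions, which are not replicates of a genotype, and were not tested. The genotype difference was 0.12 to 0.18 when each library was left out, 0.26 with ranks by fold, and 0.16 when only regions without an AP-1 match were used on both sides. It was 0.15 in shared intronic, 0.12 in shared exonic and 0.30 in more distant shared intergenic regions (exact permutation p = 0.10 each) and 0.11 in shared promoter regions (exact permutation p = 0.20), so it was not particular to these regions. Median tags at regions with a CTCF match were 26, 23 and 14 in WT and 31, 26 and 29 in Pbrm1 cKO, and at the others 30, 28 and 16 and 33, 28 and 29. The part of depth in this difference was not tested.

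Regions with an AP-1 match ranked ahead of those without in all 6 libraries, by 0.15, 0.22 and 0.14 in WT and 0.18, 0.11 and 0.08 in Pbrm1 cKO. The genotype difference of -0.04 lay within the spread (exact permutation p = 0.40, adjusted 0.80). The TEAD difference was 0.03, 0.10 and 0.04 in WT and -0.0092, -0.0037 and -0.03 in Pbrm1 cKO. For MEF2 it was -0.05, -0.05 and -0.09 in WT and -0.15, -0.16 and -0.17 in Pbrm1 cKO. The ER element, on 35 regions, gave 0.13, 0.17 and 0.16 in WT and -0.21, 0.00 and -0.20 in Pbrm1 cKO. TEAD, MEF2 and ER element differences were lower in every Pbrm1 cKO than in every WT library, and RUNX higher (by 0.03), all with exact permutation p = 0.10 and 0.32 after adjustment over 16 motifs. The remaining 10 motifs overlapped between genotypes. For MEF2 the genotype difference was -0.10 here but 0.20 in shared intergenic regions beyond 50 kb (exact permutation p = 0.10 each). It was 0.02 in shared intronic, -0.07 in shared exonic and -0.0028 in shared promoter regions.

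**Figure D5:**
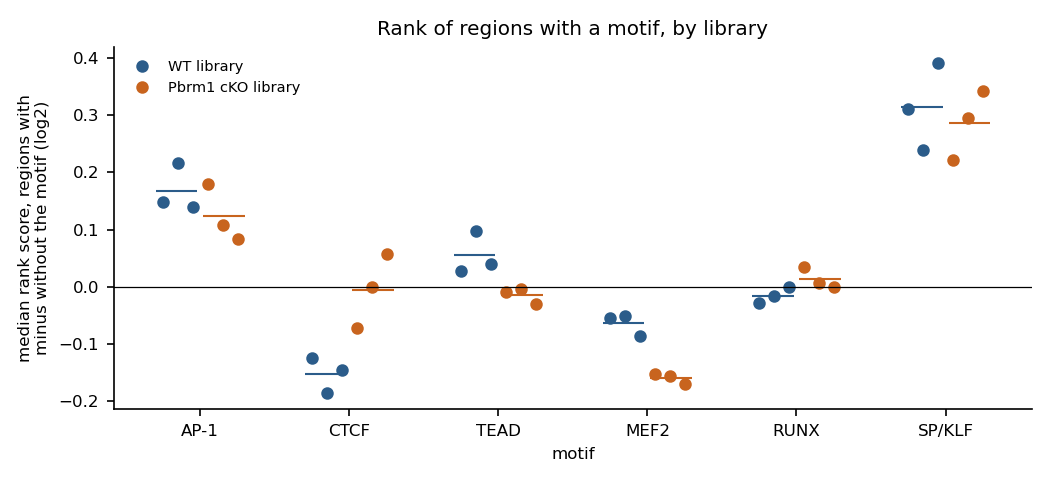
Difference in median rank score (y axis, log2) between regions with and without each of 6 motifs (x axis), with 1 point per WT (blue) or Pbrm1 cKO (orange) library and bars at the means. For CTCF all WT points lie between -0.18 and -0.12 and the Pbrm1 cKO points between -0.07 and 0.06. AP-1 and SP/KLF points lie above 0 in every library.

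Smooth muscle genes had a small number of these regions. Of 18 contractile genes, 8 were the nearest start for 14 regions, of which 10 (71.4%) held an AP-1 match. None passed in either direction, and the median genotype difference was 0.05, beside -0.0010 over all regions of this kind. The best-ranked was near Vcl, which encodes the adhesion protein vinculin, with ranks of 6615, 5664 and 15224.5 in WT and 11883, 13559.5 and 20022.5 in Pbrm1 cKO, and these overlap (-0.83, limma adjusted p = 0.323). At Acta2, the gene of smooth muscle actin, a region 10.3 kb upstream (chr19:34265541-34266185) held both an AP-1 match and a CArG box. It ranked 17240, 18596 and 25874.5 in WT and 28832.5, 26905.5 and 44999 in Pbrm1 cKO, which do not overlap, but the difference of -0.69 ± 0.33 (SE) did not pass (limma adjusted p = 0.322). The best-ranked regions of Cnn1, Tagln, Des, Actn1, Tpm2 and Smtn differed by -0.37 to 0.34, each with limma adjusted p above 0.6. Of 15 annotated smooth muscle regulators, 4 had 6 regions, and their best-ranked regions near Mef2d, Mef2a, Klf4 and Fhl2 all held an AP-1 match and differed by 0.43, -0.40, 0.13 and -0.23.

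Among the signalling genes, prostaglandin synthesis, clearance and receptor genes had 9 regions near 7 of 25 genes, and 8 of the 9 had a negative genotype difference, with a median of -0.32. At unadjusted p under 0.05, 2 of the 9 were lower and none higher, where 8.37% and 7.51% of all regions were, and none passed. With so few regions a list's count cannot be told from that background, here and in the lists below. The best-ranked lay 3.76 kb upstream of Abcc4, a prostaglandin exporter, with ranks of 5177, 6853.5 and 4906.5 in WT and 7814, 4534 and 6672 in Pbrm1 cKO, which overlap. The region nearest to Ptgs2, the inducible cyclooxygenase, had 28, 28 and 18 tags in WT and 28, 22 and 21 in Pbrm1 cKO, which overlap. Its ranks of 24393, 20210.5 and 21182 in WT and 27789.5, 30349 and 34891.5 in Pbrm1 cKO do not overlap, but it did not pass (-0.50, limma adjusted p = 0.453). Wnt and Hedgehog genes had 16 regions near 10 of 26 genes, with a median difference of 0.06 and the best rank near Lef1, a Wnt effector. TGF-beta and FGF genes had 13 near 8 of 28 genes, with a median of 0.28 and the best rank near Id1, a BMP target. By nearest protein-coding start the TGF-beta and FGF median was 0.05 over 79 regions and the Wnt and Hedgehog median turned to -0.06 over 42. The contractile median likewise turned, to -0.0028 over 18 regions. Steroid receptor genes had 3, of which the best-ranked lay near Esr2. None of these passed in either direction.

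Fos, which encodes an AP-1 subunit, was the nearest start for 5 regions, and its strongest lay 18.5 kb upstream (chr12:85454925-85455812). That region had 106, 102 and 72 tags in WT and 144, 127 and 155 in Pbrm1 cKO. Ranks were 4648.5, 2913 and 2477 in WT and 1980, 1516.5 and 646 in Pbrm1 cKO, without overlap, but the difference of 1.37 ± 0.55 (SE) did not pass (limma adjusted p = 0.234). The AP-1 family as a whole had 8 regions near 4 of 10 genes, with a median difference of 0.09, 1 higher at unadjusted p under 0.05 and none past the threshold. Assigned by nearest protein-coding start, the list had 16 regions and the median turned to -0.20.

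Extracellular matrix genes had the most regions, 32 near 10 of 21 annotated genes. Counted after the values were seen, Col6a3 had 7, and Postn and Col3a1 had 4 each. The best-ranked lay 5.27 kb upstream of Sparc, a secreted collagen-binding protein, with 102, 106 and 71 tags in WT and 125, 94 and 116 in Pbrm1 cKO. Of the 32, 22 had a negative and 10 a positive difference, with a median of -0.16, and none had an unadjusted p under 0.05. Factors of Müllerian duct mesenchyme and HOX factors had 10 regions near 8 of 27 genes, 7 of them with a negative difference, and their median was -0.20. Their strongest lay 11.6 kb from Wt1, a zinc finger factor of the urogenital mesenchyme, with ranks of 6718, 2203.5 and 6940.5 in WT and 8972.5, 6577 and 7015 in Pbrm1 cKO (-0.67, limma adjusted p = 0.495). The 1 region of the list with an unadjusted p under 0.05, near Msx1 and named after its values were seen, was lower and did not pass (-0.83, limma adjusted p = 0.164). Marker genes had few regions, 5 for smooth muscle, 4 for epithelium, 3 for immune cells, 2 for endothelium and 6 for fibroblasts, and no region of theirs had an unadjusted p under 0.05. The best-ranked of each lay near Cnn1, Epcam, Adgre1, Kdr and Col1a1.

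By nearest start, most regions lay near Trim27, with 12, followed by 5830428M24Rik, Gm25888 and Olfr1421-ps1 with 9 each and Gm19510 and Gm47543 with 8 each. None of the 12 near Trim27, a TRIM family ubiquitin ligase, held an AP-1 or CTCF match, and the strongest (chr13:21199819-21200793) ranked 569, 515 and 1482 in WT and 497, 535 and 677 in Pbrm1 cKO. The 8 regions near Gm47543 and the 8 near Gm19510 held AP-1 in 6 each. When each region was given instead to the nearest protein-coding start, a choice made after the values were seen, Cd83 came first with 19 regions from 9.37 to 444 kb away, of which 14 held an AP-1 match. Med13l and Zfp608 had 15, Irf2bpl 14, and Gadd45g, Inhba and Irf2bp2 13 each. Inhba encodes an activin subunit. Its regions lay 162 to 833 kb from its start. At unadjusted p under 0.05, 3 of 13 were higher and 1 lower, where 7.51% and 8.37% of all regions were. This count, of a gene picked for its number of regions, was not tested. Fn1, the gene of fibronectin, had 12 regions, 9 with an AP-1 match, and none with unadjusted p under 0.05.

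At the limits of the selection, the regions just inside 1 kb lay 1002 bp from Gm25732 and from Gm42797 and ranked 33838 and 25392.5 in WT library 1. Those just outside lay 999 bp from Gm3776 and Slfn2 and ranked 10583 and 21859.5. Just inside 50 kb were regions 49998 bp from Gm37839 and 49925 bp from Gm26686, with ranks of 22398 and 49733.5, and just outside were regions 50017 bp from Gm35772 and 50030 bp from Tgif1-ps, with ranks of 25915 and 33088. These values are given as a description of the cutoffs.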

How the data were processed

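ATAC-Seq peaks of 6 libraries of D2 oviductal muscle cells, 3 WT and 3 Pbrm1 cKO, were analysed. Per the labels and the study's methods, the authors trimmed reads with cutadapt, aligned them with Bowtie2 to GRCm38 and called peaks with MACS2 in the ENCODE ATAC-Seq pipeline; mitochondrial reads and duplicates were removed, as the file names record. The deposited lists hold a score, a fold enrichment ratio over local background and −log10 p-values per peak. Each library's list holds up to 300000 entries at p 0.01, and the IDR lists (threshold 0.05) are pooled per genotype. The authors' read counts were not used here.

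Overlapping IDR entries were merged and classed with GENCODE M21. Each region took the library entry with the highest −log10 p, and the fold enrichments printed are of that entry. Ranks by fold took the highest fold of any overlapping entry. Regions without an entry shared the last rank. limma 3.58.1 (trend) compared log2 rank scores, with exact permutation tests over libraries for medians. Motifs were matched in the 300 bp of RefSeq GRCm38 centred on each summit. Copies were sought with minimap2 and mitochondrial matches (at least 80% identity over 50 bp) with blastn. Tags were solved from fold and p (within 0.05 of a whole number). Functions were tested on simulated data. Named were the 10 best-ranked regions, those past the threshold filled to 3 per direction, the 5 genes with most regions (ties kept), the best-ranked of each gene list and smooth muscle gene, and regions at the limits. The regions, lists and rules were chosen with earlier results of these data known. Alternatives were other scores, filters, limits, windows, a replicate block and leaving out each library.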

Additional observations from a re-analysis of the deposited data

How the results depend on the processing

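The number of regions was 7749 to 12008 under other annotation, distance and overlap rules. Regions past the threshold, 2 higher and 2 lower in Pbrm1 cKO, were 45 and 43 with normal scores, 1 and 0 with ranks by fold, and 7 and 5 both among the upper part of regions by rank and with the replicate number as a block. Without 1 library they were 0 to 1 higher and 0 to 2 lower. Of the 4 named calls, 1 remained with ranks by fold, 4 with normal scores and with the block, and 0 to 3 without 1 library. Libraries of the same number did not deviate together (correlations -0.0029, -0.0549 and 0.0091), so the block shows only a shared number. It left the genotype differences of medians at 0.0037 (all), -0.04 (AP-1) and 0.15 (CTCF), with exact permutation p of 0.75, 0.50 and 0.25. With 3 pairs of libraries, that test cannot go below 0.25.

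Without 1 library, 5 libraries allow no exact p under 0.0625. The difference to promoter regions was then -1.27 to -1.19, that to intergenic regions beyond 50 kb 0.0749 to 0.0970, and it turned to -0.0591 with ranks by fold. The difference between regions within 10 kb and beyond 25 kb turned to -0.11 with ranks by fold. The median difference between genotypes, 0.0037, was -0.0030 with ranks by fold and -0.0273 to 0.0275 without 1 library. The AP-1 share was 38.6% in 150 bp and 49.3% in 500 bp, and the CTCF share 8.35% to 8.97%. The cause was not tested, except that a wider window holds more sequence. Without regions that have a near-identical copy or a mitochondrial match, an alternative chosen after seeing the data, the difference to promoter regions stayed on its side of the threshold.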
